A study of Mus musculus with 22 samples.

Results

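The vacuolar H+-ATPase (V-ATPase) genes of this description are 10 named subunit genes of the proton pump, found as the 10 rows of the deposited count matrix whose symbol matched, out of 55573 genes. They are Atp6v1a, Atp6v1b2, Atp6v1c1, Atp6v1d, Atp6v1e1 and Atp6v1h of the cytosolic V1 sector, Atp6v0a1, Atp6v0d1 and Atp6v0c of the membrane V0 sector, and the accessory gene Atp6ap1. They were read in mRNA-seq libraries of 22 mouse livers, 1 per library, all of C57BL/6 mice that carry Albumin-Cre, a recombinase driven by a hepatocyte promoter. Cre mice have wild-type Flcn (6 livers on chow, 5 on the diet deficient in methionine and choline, MCD). Liver-Flcn-/- mice, labelled FLCN KO, have floxed Flcn alleles deleted in hepatocytes (5 livers on chow, 6 on MCD). In cells that do not express albumin the floxed alleles remain. The diets began at 6 weeks of age and lasted 6 weeks, the chow held 10 kcal percent fat, and the mice were 3 months old at the end.

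The V-ATPase is a rotary pump of lysosomes and other acidic compartments. Its V1 sector splits ATP at sites formed by the A and B subunits, a central stalk that contains subunit D turns with it, and protons cross the membrane between the ring of c subunits and the fixed subunit a. On the lysosome the pump also takes part in amino acid sensing by mTORC1 through the Ragulator and Rag GTPases, and FLCN is the GTPase-activating protein for RagC and RagD. TFEB and TFE3, transcription factors that FLCN helps to keep out of the nucleus, bind E-boxes of the CLEAR type at lysosomal genes, and proton pump genes are among their known targets.

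Because of that link the start sites of the members were searched for the E-box CACGTG, which reads the same on both strands. RefSeq windows on GRCm38.p6, from 250 bases before to 50 bases after a gene's start, were matched for 7 of the 10 members with 9 windows, since a gene may have several starts, and CACGTG lay in 2 of the 9 windows, 1 each of 2 genes, against 7.15% of all 32851 windows. The longer TCACGTG, or CACGTGA on the other strand, which contains the E-box, was found in the same 2 windows and in 3.77% of all windows, and the full CLEAR consensus, which contains both, was found in 0 of the 9 and in 0.326% of all windows. The E-box began 131 bases before the start of Atp6v1a and 3 bases before the start of Atp6v0d1. The window of Atp6v0a1, chr11:101010148-101010447 on the plus strand, lies inside the gene of GENCODE M21, which starts at 101009452. It therefore does not cover that annotated start. The stretches below run 5′ to 3′ on the minus strand, which is the coding strand of all 3 genes, with the match and its flanking T and A in capitals. They cover the part outside annotated exons of the gene and up to 20 exonic bases at an end. The third stretch, without a match, is shown for comparison because Atp6v1d was higher in all 4 comparisons of genotype or diet. A match describes the letters and not a bound site.
Atp6v1a: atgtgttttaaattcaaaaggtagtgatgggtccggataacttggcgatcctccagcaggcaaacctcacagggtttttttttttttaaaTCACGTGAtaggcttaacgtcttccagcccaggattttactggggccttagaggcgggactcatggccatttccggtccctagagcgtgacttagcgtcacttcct
Atp6v0d1: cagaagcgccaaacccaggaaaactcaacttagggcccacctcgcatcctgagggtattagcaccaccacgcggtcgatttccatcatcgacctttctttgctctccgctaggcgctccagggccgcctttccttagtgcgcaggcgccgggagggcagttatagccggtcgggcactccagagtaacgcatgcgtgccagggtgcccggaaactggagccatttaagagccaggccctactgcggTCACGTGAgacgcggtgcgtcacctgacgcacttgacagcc
Atp6v1d: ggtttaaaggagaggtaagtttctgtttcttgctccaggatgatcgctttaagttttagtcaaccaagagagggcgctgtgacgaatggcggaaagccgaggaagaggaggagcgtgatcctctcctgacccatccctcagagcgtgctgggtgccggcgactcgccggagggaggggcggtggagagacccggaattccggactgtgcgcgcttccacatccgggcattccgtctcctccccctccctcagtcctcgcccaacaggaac
The stretches are chr16:44139286-44139481 for Atp6v1a, chr8:105566028-105566314 for Atp6v0d1 and chr12:78861619-78861888 for Atp6v1d. In GENCODE M21 on GRCm38 the Atp6v1a gene spans 44085402 to 44139705 on chromosome 16, where its alternative first exons flank the stretch shown. Atp6v0d1 spans 105524465 to 105566047 on chromosome 8, and Atp6v1d spans 78840725 to 78861638 on chromosome 12.

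The libraries held 13751347 to 21144388 counted reads, and each member had between 446 and 3919 counts in every library, so no member was near the limit of 3 counts used as the floor. Levels below are CPM, the counts of a gene per 1000000 counted reads after TMM scaling of the library size, and tests are two-sided edgeR quasi-likelihood tests with Benjamini-Hochberg adjustment over all 14062 genes tested. All 10 members were among the genes tested, and a gene is called where the adjusted p was under 0.05. In bulk liver, fewer cells of a type and less RNA per cell cannot be told apart. The tissue label was checked on 7 hepatocyte markers, which were present in all 22 livers and led by Alb, the albumin gene, at summed means between 69340 and 130300 CPM by group. Libraries that stand apart are these. Cre MCD 1 and FLCN KO Chow 2 held counts of both Xist (5411 and 6222), which is transcribed from the inactive X chromosome, and the Y-linked Ddx3y (378 and 263). The other 10 livers with high Xist also had 0 to 113 counts of Ddx3y, with no limit set between them, so these 2 are the highest of 12 and were chosen after their values were seen. Cre MCD 3 held 1646 CPM of 5 skeletal muscle markers, led by Acta1, against 0.769 to 84.8 CPM in the other Cre livers on MCD. In 5 chow libraries a smaller share of the reads had mapped uniquely (Cre Chow 1, 5 and 6, FLCN KO Chow 1 and 3), and these were also the 5 on chow with almost no Xist, so mapping and sex cannot be told apart there.

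Flcn itself was at 26.1 to 40.2 CPM with a median of 31.8 in the 6 Cre livers on chow and at 24.2, 19.96, 16.7, 19.4 and 21.8 CPM in the 5 liver-Flcn-/- livers on chow. The 2 groups did not overlap, and Flcn was lower in the knockout by a log2 fold change of -0.63 ± 0.17 (SE, adjusted p = 0.0229, edgeR). On MCD it was at 31.8, 18.2, 39.9, 32.5 and 23.6 CPM in Cre livers and at 17.6 to 32.6 CPM with a median of 26.6 in liver-Flcn-/- livers, and these overlapped (log2 fold change -0.16 ± 0.17, adjusted p = 0.565, edgeR). The deletion removes an exon and the other exons of the gene remain countable, so on MCD the gene count did not check the label. Rragd, the gene of the RagD GTPase and a known TFEB and TFE3 target, was at 1.502 to 2.59 CPM in Cre livers on chow (median 2.43) and at 41.7, 17.2, 40.5, 37.9 and 28.6 CPM in liver-Flcn-/- livers. Its MCD values were 7.58, 5.82, 9.89, 3.83 and 6.71 CPM in Cre livers and 45.5 to 74.3 CPM (median 63.9) in liver-Flcn-/- livers. The groups stood clearly apart on each diet, with FLCN KO Chow 2 the lowest of the knockouts.

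On the question of what Flcn loss did to the pump genes on MCD, 9 of the 10 members were higher in liver-Flcn-/- than in Cre livers and 0 were lower. The exception was Atp6v0a1. Over all genes tested 8.03% were called higher and 8.46% lower in this comparison. The members' median log2 fold change was 0.44, with -0.01 over all genes tested. The same 9 members had groups that did not overlap, each knockout liver lying above each Cre liver, against 5.08% of all genes. On chow 7 of 10 members were called higher and 0 lower, with 5.45% of all genes called higher and 3.04% lower. The median was 0.32, beside -0.03 over all genes. On chow the groups did not overlap for Atp6v1a, Atp6v1b2 and Atp6ap1, 3 of the 10, against 4.01% of all genes. Both comparisons set 11 livers against each other and share no liver. The summed level of the 10 members was 592 ± 36.5 CPM in Cre livers on chow (SD, n = 6), 707 ± 55.8 in liver-Flcn-/- livers on chow (n = 5), 735 ± 20.04 in Cre livers on MCD (n = 5) and 1012 ± 50.3 in liver-Flcn-/- livers on MCD (n = 6).

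**Figure D1:**
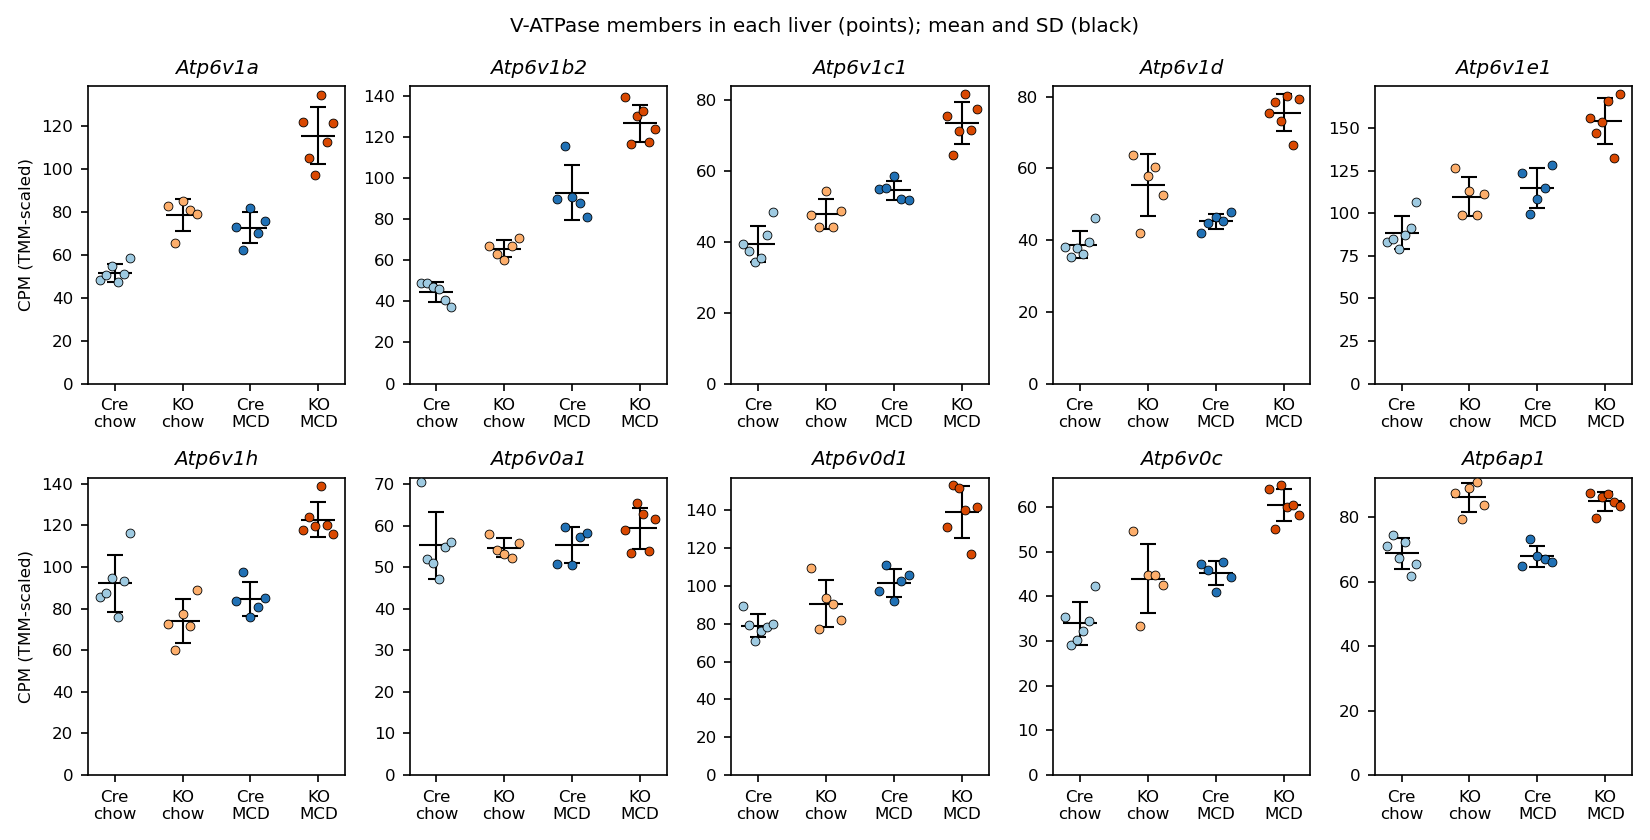
CPM of each member (vertical axes, from 0) in each liver, by group (horizontal axes), where points are livers and black marks the mean and SD. Every liver of the liver-Flcn-/- MCD group lies above every Cre liver on MCD for 9 members, and the 4 groups overlap for Atp6v0a1.

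Of the V1 genes, Atp6v1a encodes the catalytic A subunit. It was at 47.2 to 58.3 CPM (median 50.8) in the 6 Cre livers on chow and at 82.7, 65.7, 84.9, 80.8 and 79.2 CPM in the 5 liver-Flcn-/- livers on chow. On MCD it was at 72.9, 62.4, 81.8, 70.1 and 75.8 CPM in Cre livers and at 97.3 to 134 CPM (median 117) in liver-Flcn-/- livers. No knockout liver overlapped the Cre livers on the same diet, and FLCN KO Chow 2 was the lowest knockout. Atp6v1a was 1.52-fold higher in the knockout on chow (log2 0.60 ± 0.09 SE, adjusted p = 0.000107) and 1.59-fold higher on MCD (log2 0.67 ± 0.09, adjusted p = 2.41e-05; edgeR). MCD raised it 1.40-fold in Cre and 1.47-fold in liver-Flcn-/- livers, with adjusted p of 8.2e-05 and 3.53e-05 (edgeR).

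Atp6v1b2 encodes the B subunit found in most tissues, which completes the nucleotide sites with A. Cre livers on chow had 37.0 to 49.2 CPM (median 46.3), and liver-Flcn-/- livers on chow had 67.1, 63.2, 60.1, 67.1 and 70.8 CPM. The MCD values were 89.7, 115.6, 90.7, 87.8 and 81.1 CPM in Cre livers and 116.6 to 139.7 CPM (median 127) in liver-Flcn-/- livers. Each group lay above the one before it, with Cre MCD 2 just under the lowest knockout on MCD. The diet difference was the largest of any member, 2.08-fold in Cre livers (log2 1.06 ± 0.09, adjusted p = 2.65e-09) and 1.93-fold in liver-Flcn-/- livers (log2 0.95 ± 0.09, adjusted p = 3.6e-08). The genotype differences of Atp6v1b2 were 1.47-fold on chow (adjusted p = 0.000263) and 1.36-fold on MCD (adjusted p = 0.00155; edgeR).

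Atp6v1d encodes the D subunit of the rotating stalk. Its level was 35.4 to 46.0 CPM (median 37.8) in Cre livers on chow and 63.8, 42.0, 57.9, 60.4 and 52.5 CPM in liver-Flcn-/- livers on chow. On MCD it was 41.9, 44.8, 46.3, 45.2 and 47.7 CPM in Cre livers and 66.4 to 80.1 CPM (median 77.0) in liver-Flcn-/- livers. On chow the groups overlapped through FLCN KO Chow 2 and Cre Chow 6, whereas on MCD they stood apart. Atp6v1d had the largest genotype difference among the members on MCD, 1.67-fold (log2 0.74 ± 0.09, adjusted p = 8.71e-06), and 1.43-fold on chow (log2 0.51 ± 0.09, adjusted p = 0.000682; edgeR). Its diet difference was 1.17-fold in Cre livers (adjusted p = 0.0411, edgeR), a call that was lost in 12 of 35 alternatives, and 1.37-fold in liver-Flcn-/- livers (adjusted p = 0.000366).

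Atp6v1c1 and Atp6v1e1 encode subunits C and E of the peripheral stalks. Atp6v1c1 averaged 39.5 ± 5.15 CPM in Cre and 47.8 ± 4.23 CPM in liver-Flcn-/- livers on chow, and 54.5 ± 2.73 and 73.7 ± 5.93 CPM on MCD (SD). Atp6v1e1 averaged 88.6 ± 9.74 and 109.7 ± 11.6 CPM on chow and 114.8 ± 11.5 and 154 ± 13.6 CPM on MCD. Genotype groups of both genes overlapped on chow and did not on MCD. On MCD Atp6v1c1 was 1.35-fold and Atp6v1e1 1.34-fold higher in the knockout (adjusted p = 0.00126 and 0.0028, edgeR). On chow the calls were near the threshold, with adjusted p of 0.0443 for Atp6v1c1 and 0.0372 for Atp6v1e1, and were lost in 18 and 12 of 35 alternatives. Both genes were higher on MCD in each genotype, between 1.30-fold and 1.54-fold. Atp6v1e1 shares 0.779% of its exon bases with Slc25a18 on the opposite strand.

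Atp6v1h encodes subunit H, which joins V1 to V0 and takes part in switching the pump on and off. It was at 75.8 to 116.5 CPM (median 90.4) in Cre livers on chow and at 72.5, 59.95, 77.2, 71.6 and 88.8 CPM in liver-Flcn-/- livers on chow. On MCD it was at 83.7, 97.5, 75.9, 80.6 and 85.3 CPM in Cre livers and at 115.8 to 139 CPM (median 119.9) in liver-Flcn-/- livers. On chow the groups overlapped, with FLCN KO Chow 2 the lowest and Cre Chow 6 the highest, while on MCD each knockout exceeded each Cre liver. The log2 fold change of the knockout was -0.32 ± 0.10 on chow (adjusted p = 0.0566) and 0.54 ± 0.10 on MCD (adjusted p = 0.000966, edgeR). The interaction of genotype and diet, the difference between those changes, was 0.85 ± 0.14 in log2 (adjusted p = 0.0013, edgeR). Atp6v1h was the only member with a called interaction, 1 of 10, where 3.21% of all genes had a called interaction above 0 and 5.42% below 0. Its diet difference was 1.66-fold in liver-Flcn-/- livers (adjusted p = 6.01e-06) and 0.918-fold in Cre livers (adjusted p = 0.308). Over its 34 alternatives the interaction lay between 0.64 and 1.05, with adjusted p up to 0.072 where only the libraries with low Xist counts were used. Its exons share 1.3% of their bases with Rgs20 on the opposite strand, and whether counting used strand is not given in the sources used here.

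**Figure D2:**
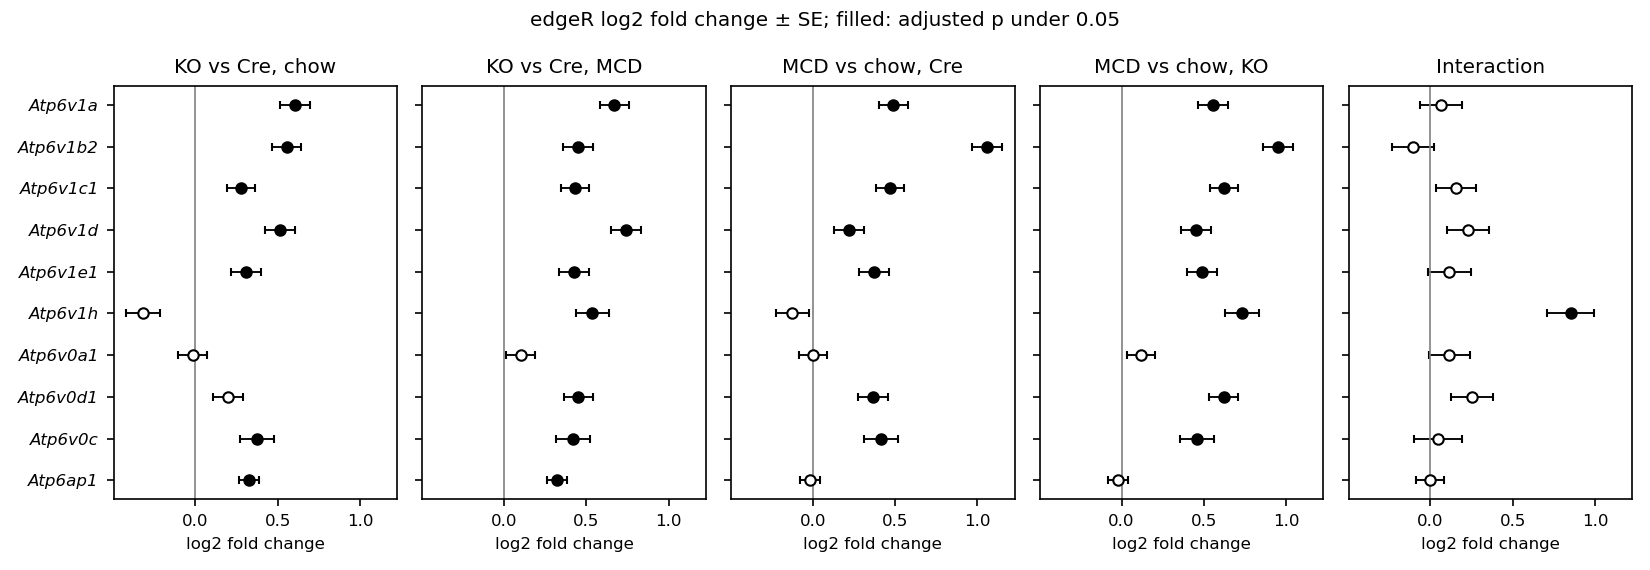
Log2 fold change with SE (horizontal axes) of the 10 members (vertical axis) in the 4 comparisons and their interaction, from edgeR, with filled points for adjusted p under 0.05. Calls number 7, 9, 7, 8 and 1 from left to right, all above 0, and Atp6v1h is the filled point in the interaction.

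Of the V0 genes, Atp6v0a1 encodes one of the forms of subunit a that guide protons across the membrane. It stood at 47.3 to 70.4 CPM (median 53.5) in Cre livers on chow and at 58.0, 54.1, 53.2, 52.2 and 55.9 CPM in liver-Flcn-/- livers on chow. On MCD the values were 50.9, 59.7, 50.6, 57.3 and 58.4 CPM in Cre livers and 53.4 to 65.4 CPM (median 60.2) in liver-Flcn-/- livers. All 4 groups overlapped. Its log2 fold changes were -0.02 ± 0.09 and 0.10 ± 0.09 for genotype on chow and on MCD and 0.00 ± 0.09 and 0.12 ± 0.09 for diet in Cre and in liver-Flcn-/- livers, with adjusted p from 0.278 to 0.984 (edgeR), so Atp6v0a1 was not called in these 4 comparisons. With library size alone as the scaling it was called higher on MCD in both genotypes, with log2 0.43 in Cre and 0.38 in liver-Flcn-/- livers (adjusted p = 9.82e-05 and 0.000551, edgeR).

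Atp6v0d1 encodes subunit d, the link between the stalk and the c ring. Cre livers on chow had 70.8 to 89.5 CPM (median 78.9), and liver-Flcn-/- livers on chow had 109.5, 77.3, 93.6, 90.7 and 81.9 CPM. On MCD Cre livers had 97.5, 111.2, 92.0, 102.6 and 105.7 CPM, and liver-Flcn-/- livers had 117 to 153 CPM (median 141). The genotypes overlapped on chow and stood apart on MCD. The genotype difference was 1.37-fold on MCD (log2 0.45 ± 0.09, adjusted p = 0.00145), and the log2 value on chow was 0.20 ± 0.09 (adjusted p = 0.183). The difference between these changes was 0.25 ± 0.13 in log2 and did not pass (adjusted p = 0.224, edgeR). MCD raised Atp6v0d1 1.29-fold in Cre and 1.54-fold in liver-Flcn-/- livers.

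Atp6v0c, the gene of the proton-carrying c ring, averaged 33.9 ± 4.76 CPM in Cre and 44.0 ± 7.62 CPM in liver-Flcn-/- livers on chow, and 45.2 ± 2.74 and 60.5 ± 3.63 CPM on MCD. Genotype groups overlapped on chow, where FLCN KO Chow 2 had 33.3 CPM, and did not overlap on MCD. It was 1.30-fold higher in the knockout on chow (adjusted p = 0.0249), a call lost in 8 of 35 alternatives, and 1.34-fold higher on MCD (adjusted p = 0.00697, edgeR). It has 2 processed copies in the table, Atp6v0c-ps1 and Atp6v0c-ps2, with 19 and 149 counts over all 22 libraries, and reads from near-identical copies could have been divided between them and the gene.

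Atp6ap1 encodes the accessory protein Ac45, needed to assemble V0 and to bring the pump to its compartments. On chow it was at 61.7 to 74.5 CPM (median 69.3) in Cre livers and at 87.5, 79.4, 89.2, 90.9 and 83.8 CPM in liver-Flcn-/- livers. MCD livers had 64.7, 73.2, 68.1, 67.1 and 66.2 CPM in the Cre group and 79.9 to 87.5 CPM (median 85.5) in the liver-Flcn-/- group. The 2 genotypes stood apart on each diet and the 2 diets overlapped within each genotype. The genotype difference was 1.25-fold on chow (log2 0.32 ± 0.06, adjusted p = 0.0012) and 1.25-fold on MCD (log2 0.32 ± 0.06, adjusted p = 0.000905). The diet log2 changes were -0.02 ± 0.06 in Cre livers (adjusted p = 0.802) and -0.02 ± 0.06 in liver-Flcn-/- livers (adjusted p = 0.798, edgeR). With library size alone as the scaling, the diet changes of Atp6ap1 became 0.40 and 0.24.

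On the question of the MCD diet, 7 members were called higher than on chow in Cre livers and 8 in liver-Flcn-/- livers, and 0 were called lower in either. The diet moved much of the transcriptome, with 29.3% of all genes called higher and 28.2% lower in Cre livers, and 22.4% higher and 22.4% lower in liver-Flcn-/- livers. The members' median was 0.37 in Cre livers, with 0.01 over all genes, and 0.52 in liver-Flcn-/- livers, with 0.00 over all genes. Diet groups did not overlap for 4 members in Cre livers (Atp6v1a, Atp6v1b2, Atp6v1c1 and Atp6v0d1), against 15.6% of all genes. In liver-Flcn-/- livers they did not overlap for 8 members, all but Atp6v0a1 and Atp6ap1, against 14.4%. These comparisons share livers with the genotype comparisons above. Scaling bears on them, since TMM factors were 0.816 to 0.969 on chow and 1.06 to 1.197 on MCD. With library size alone the median of all genes moved to 0.43 in Cre and 0.27 in liver-Flcn-/- livers, and the members' medians to 0.79 and 0.78. The gap of the members over all genes stayed at 0.36 and 0.52, as it must, since a change of scaling moves all genes nearly alike. Calls over all genes then split into 7877 higher and 1740 lower in Cre livers, in place of 4119 and 3959, and into 5787 and 1718 in liver-Flcn-/- livers, in place of 3144 and 3148. For the knockout on chow the split became 1433 higher and 123 lower in place of 766 and 427, and for the interaction 171 and 1215 in place of 451 and 762.

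Markers of hepatocytes and of other cells moved with diet and with genotype too. The shares of all genes called, to be set beside the counts that follow, were these. On MCD 29.3% were higher and 28.2% lower in Cre livers, and 22.4% each way in liver-Flcn-/- livers. In the knockout 5.45% were higher and 3.04% lower on chow, and 8.03% higher and 8.46% lower on MCD. Of the 7 hepatocyte markers 6 were called lower on MCD in each genotype, with median log2 values of -0.99 in Cre and -0.68 in liver-Flcn-/- livers. Their summed level averaged 130300 and 86520 CPM in Cre livers on chow and on MCD, and 107100 and 69340 CPM in liver-Flcn-/- livers. In the knockout all 7 had log2 values below 0 on chow (-0.56 to -0.24, median -0.45), of which Ttr was called lower, and on MCD the values ran from -0.90 to 0.23 (median -0.07), of which Tat was called lower. The part of the hepatocyte markers in the genotype and diet results was not tested. The summed level of 9 macrophage and monocyte markers, led by Lyz2 with none at 0, was 179 ± 24.3 CPM in Cre and 233 ± 21.3 CPM in liver-Flcn-/- livers on chow, and 494 ± 148 and 371 ± 131 CPM on MCD (SD). Of these 9, 7 were called higher on MCD in Cre livers and 4 in liver-Flcn-/- livers, where 2 were lower. In the knockout 3 were higher on chow (Trem2, Gpnmb and Cd9) and 4 were lower on MCD (Cd68, Lyz2, Itgax and Trem2). The other 5 were not called for genotype on MCD, and the sums overlapped there, at 319.8 to 670.8 CPM in Cre and 199.7 to 523.4 CPM in liver-Flcn-/- livers. The part of these markers in the genotype and diet results was not tested. The summed level of 5 Kupffer cell markers, led by Cd5l, was 373, 428, 352 and 314 CPM in the Cre chow, liver-Flcn-/- chow, Cre MCD and liver-Flcn-/- MCD groups. For genotype 1 of the 5 was called higher in the knockout on chow (Marco, log2 2.01) and 1 on MCD (Timd4, log2 0.94), and their part was not tested either.

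Levels of different subunits can be set beside each other only per length, here as CPM per kb of exon averaged over the 22 livers of all groups. Atp6v0d1 was the highest of the members at 57.6, followed by Atp6v1e1 at 28.5 and Atp6ap1 at 25.4. By group, mean Atp6ap1 lay above Atp6v1e1 on chow, at 22.7 against 21.6 in Cre and 28.5 against 26.7 in liver-Flcn-/- livers. On MCD it lay below, at 22.4 against 27.9 in Cre and 28.05 against 37.5 in liver-Flcn-/- livers. Atp6v1b2, Atp6v0c, Atp6v1a and Atp6v1d lay close together, at 15.6, 13.6, 13.2 and 11.7, and Atp6v1h, Atp6v1c1 and Atp6v0a1 lay lowest, at 9.71, 9.66 and 8.58. Atp6v0d1 and Atp6v1e1 differed beyond their spread in every group, for example 77.6 ± 7.58 against 37.5 ± 3.30 CPM per kb in liver-Flcn-/- livers on MCD. The order of the lower members changed with the group too. In Cre livers on chow Atp6v1h, at 9.46 CPM per kb, lay above Atp6v1a, Atp6v1d and Atp6v1b2, at 8.56, 8.42 and 8.42. Atp6v1c1 and Atp6v1h lay above Atp6v0a1 in liver-Flcn-/- livers on MCD, whereas in Cre livers on chow Atp6v1h was the highest and Atp6v1c1 the lowest of the 3. Exon length is the union over transcripts, which understates the level of a gene whose long exons are rarely used.

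**Figure D3:**
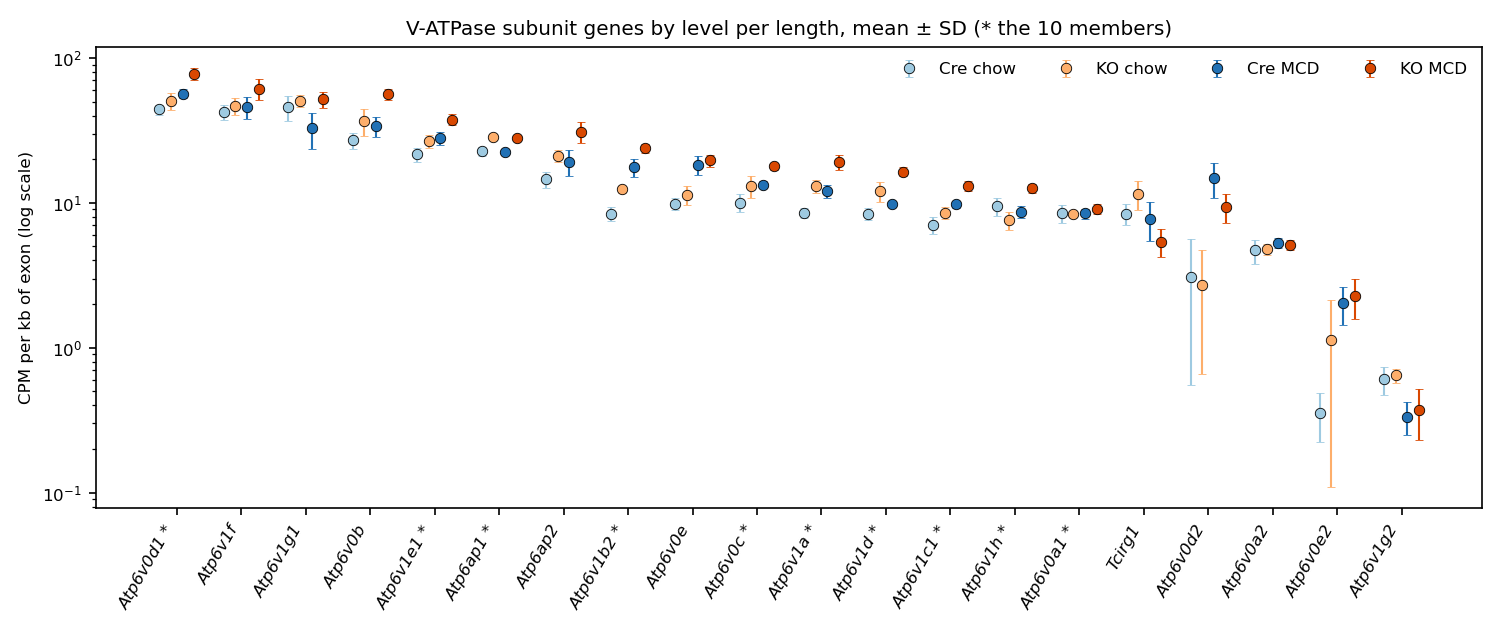
CPM per kb of exon on a log scale (vertical axis) for the 20 subunit genes that were tested (horizontal axis, members marked with a star), as group mean and SD. Atp6v0d1 is the highest member at a mean of 57.6, and Atp6v0e2 and Atp6v1g2 are the lowest genes plotted, at means of 1.43 and 0.489.

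The rest of the pump was read from 15 other subunit genes, of which 10 had enough counts to test. The form-specific genes Atp6v1b1, Atp6v1c2, Atp6v1e2, Atp6v1g3 and Atp6v0a4, known from kidney, testis or other specialised epithelia, were under the limit, and within the B, C and E families the members Atp6v1b2, Atp6v1c1 and Atp6v1e1 held at least 99.92% of the level per length in every group. Of the 10, 3 were higher in the knockout on chow and 0 lower, and 4 were higher and 1 lower on MCD, beside 5.45% of all genes higher on chow, and 8.03% higher and 8.46% lower on MCD. Atp6ap2, the prorenin receptor and second accessory subunit, was higher on both diets (log2 0.53 ± 0.13 and 0.68 ± 0.13, adjusted p = 0.01 and 0.000871, edgeR). Atp6v0b, the c'' ring subunit, was also higher on both (log2 0.44 ± 0.12 and 0.72 ± 0.12, adjusted p = 0.0246 and 0.00033), and 11.8% of its exon bases overlap the antisense gene Gm12841. The stalk genes Atp6v1g1 and Atp6v1f were higher in the knockout on MCD (log2 0.67 ± 0.15 and 0.41 ± 0.12), and on chow had log2 values of 0.15 and 0.13 with adjusted p of 0.594 and 0.565. Atp6v0e2 was called higher on chow (log2 1.70 ± 0.42, adjusted p = 0.0122), at a mean of only 0.840 CPM in Cre livers. That call rested on FLCN KO Chow 4, at 6.89 CPM, while the other 4 knockouts were at 1.71, 1.31, 0.940 and 2.59 CPM and the Cre livers at 0.425 to 1.19 CPM. Without that liver the log2 value was 0.98 (adjusted p = 0.0922, edgeR). Leaving out each of the 22 livers in turn, the calls in the knockout were also lost in 3 fits for Atp6v0b on chow and 4 for Atp6v1f on MCD, and in 0 for Atp6ap2 on either diet. On MCD, compared with chow, 5 of the 10 were higher and 2 lower in Cre livers and 6 were higher and 2 lower in liver-Flcn-/- livers, beside 29.3% of all genes higher and 28.2% lower in Cre livers, and 22.4% each way in liver-Flcn-/- livers. The lower ones were Atp6v1g2 in both genotypes (log2 -0.84 and -0.78), Atp6v1g1 in Cre livers (log2 -0.48, adjusted p = 0.00841, edgeR) and Tcirg1 in liver-Flcn-/- livers (log2 -1.10). The Atp6v0e2 diet call in liver-Flcn-/- livers had a log2 of 0.99 (adjusted p = 0.0353) and was lost in 7 of the 22 fits with a liver left out, while without FLCN KO Chow 4 it was 1.71 (adjusted p = 0.000139, edgeR). Over members and others together, 13 of 20 tested subunit genes were higher and 1 lower in the knockout on MCD, and 10 were higher and 0 lower on chow.

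The subunit gene called lower in the knockout on MCD was Tcirg1, which encodes a3, the form of subunit a known from osteoclasts and macrophage lysosomes. It was at 31.5 to 46.6 CPM (median 38.5) in Cre livers on chow and at 57.8, 44.7, 42.0, 71.7 and 48.6 CPM in liver-Flcn-/- livers on chow. On MCD it was at 33.7, 24.9, 35.3, 53.8 and 31.1 CPM in Cre livers and at 19.7 to 32.3 CPM (median 23.0) in liver-Flcn-/- livers. The genotype groups overlapped on each diet. The log2 fold change of the knockout was 0.46 ± 0.18 on chow (adjusted p = 0.12) and -0.53 ± 0.18 on MCD (adjusted p = 0.0476), and the interaction was -0.99 ± 0.26 (adjusted p = 0.0195, edgeR), opposite in sign to that of Atp6v1h. With each of the 22 livers left out in turn the call on MCD was lost in 13 fits and the interaction in 0. Over these fits the log2 value on MCD ran from -0.64 to -0.34 and the interaction from -1.09 to -0.79. As a share of the summed subunit a level per length, Atp6v0a1 made up 39.1 ± 2.00, 34.1 ± 3.40, 39.5 ± 4.82 and 46.3 ± 4.48% in the Cre chow, liver-Flcn-/- chow, Cre MCD and liver-Flcn-/- MCD groups, and Tcirg1 made up 38.9 ± 4.59, 46.3 ± 5.87, 35.6 ± 6.72 and 27.3 ± 4.49%. These shares were not tested. Of the 9 macrophage and monocyte markers 6 had called interactions below 0, among them Cd68, Lyz2 and Trem2 (log2 -1.24, -1.26 and -2.81). Over all genes tested 5.42% had a called interaction below 0. The part of these markers in the Tcirg1 result was not tested.

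**Figure D4:**
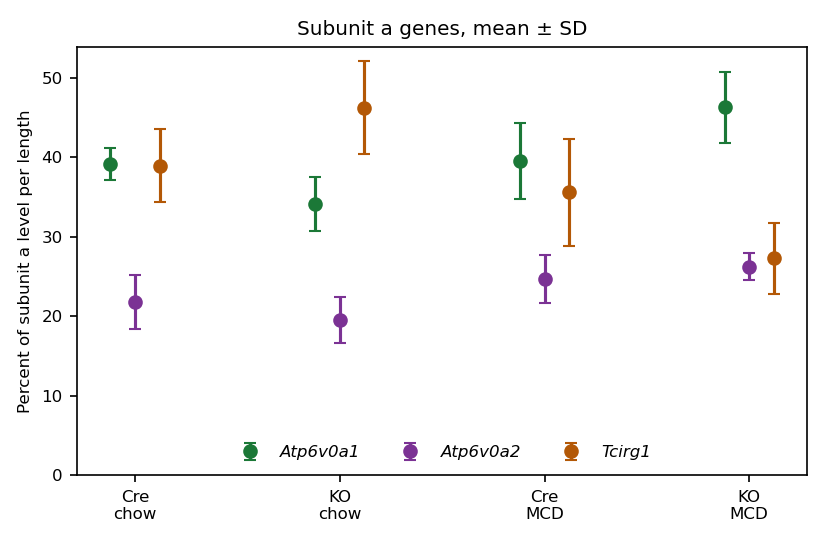
Share of each gene in the summed level of subunit a genes per exon length (vertical axis, percent) by group (horizontal axis), as mean and SD over livers. Atp6v0a1 has the largest share in liver-Flcn-/- livers on MCD, at 46.3%, and Tcirg1 its lowest there, at 27.3%.

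Atp6v0d2, the second form of subunit d and also known from macrophages and osteoclasts, had a steep diet difference, with log2 2.24 ± 0.55 in Cre livers (adjusted p = 0.00191) and 1.78 ± 0.57 in liver-Flcn-/- livers (adjusted p = 0.0152, edgeR). It averaged 8.39 ± 6.89 CPM in Cre and 7.30 ± 5.52 CPM in liver-Flcn-/- livers on chow and 40.0 ± 10.9 and 25.4 ± 5.87 CPM on MCD (SD). Atp6v0d1 still made up 79.4 ± 5.55% of the d subunit level per length in Cre livers on MCD, where Atp6v0d2 was highest.

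Among 12 genes for assembly and regulation of the pump, 11 were tested. In the knockout 3 were higher on chow and 4 on MCD, with 0 lower, beside 5.45 and 8.03% of all genes called higher. The pump regulator Dmxl2 (rabconnectin-3 alpha) was higher on both diets (log2 0.63 ± 0.19 and 0.80 ± 0.19, adjusted p = 0.0382 and 0.00558, edgeR). So were Wdr7 (rabconnectin-3 beta; log2 0.37 and 0.48, adjusted p = 0.0497 and 0.00705) and Ncoa7 (log2 0.68 and 1.20, adjusted p = 0.0321 and 0.000122), which binds the pump through its TLDc domain. Tbc1d24, of the same domain family, was higher on MCD (log2 0.56 ± 0.19, adjusted p = 0.0403). The assembly factor Ccdc115 had genotype log2 values of -0.27 and 0.24, neither called, and a called interaction of 0.52 ± 0.16 (adjusted p = 0.042, edgeR). On MCD, compared with chow, Ccdc115 (log2 0.40 in Cre and 0.92 in liver-Flcn-/- livers) and Ncoa7 (0.81 and 1.33) were called higher in each genotype. Rogdi was called higher in Cre livers (log2 0.80), and Tmem199 and Dmxl2 in liver-Flcn-/- livers (log2 0.35 and 0.48). The assembly factor Vma21 was lower on MCD in each genotype (log2 -0.57 and -0.38), and Oxr1, Dmxl1 and Meak7 passed no test. Of all genes, 29.3% were higher and 28.2% lower on MCD in Cre livers, and 22.4% each way in liver-Flcn-/- livers. Each of the 22 livers was also left out in turn. The calls in the knockout on chow were then lost in 7 fits for Dmxl2, 15 for Wdr7 and 5 for Ncoa7. That of Tbc1d24 in the knockout on MCD was lost in 8 fits and the interaction of Ccdc115 in 13. The calls of Dmxl2, Wdr7 and Ncoa7 in the knockout on MCD were lost in 0. The diet calls of Tmem199 and Dmxl2 in liver-Flcn-/- livers were lost in 6 and 7 fits.

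**Figure D5:**
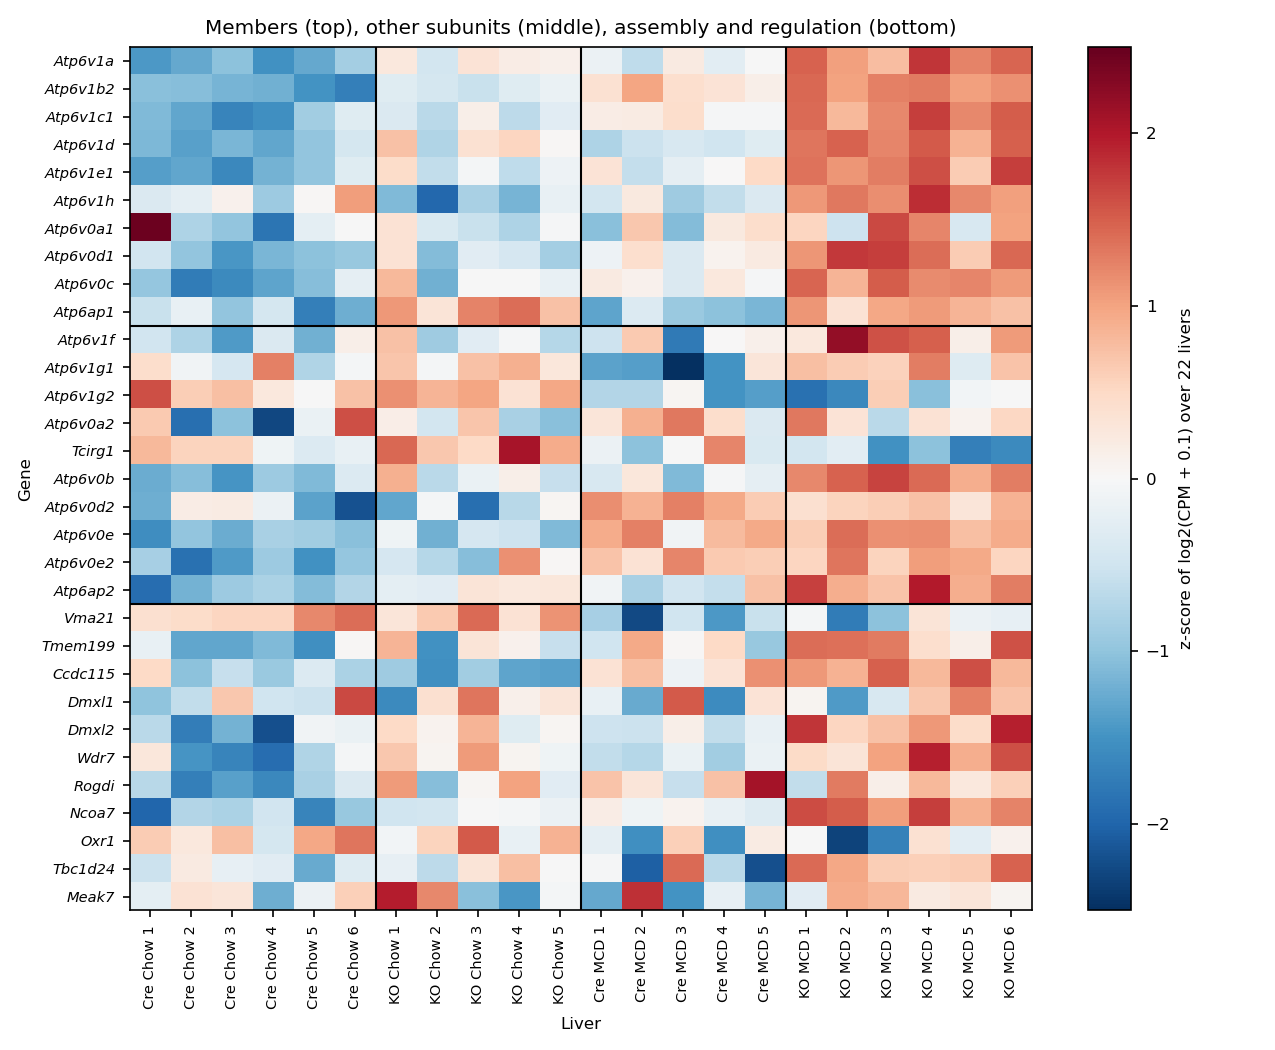
z-scores of log2(CPM + 0.1) over the 22 livers (colour, red above and blue below a gene's mean) for 31 tested pump genes (vertical axis) in each liver (horizontal axis). Most members are highest in the 6 liver-Flcn-/- livers on MCD, while Tcirg1 is not.

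Of the upstream genes, Rragd was higher in the knockout by log2 3.91 ± 0.25 on chow and 3.18 ± 0.24 on MCD (adjusted p = 1.1e-09 and 3.05e-08, edgeR), and Rragc, for RagC, by 0.38 ± 0.08 and 0.60 ± 0.08. The FLCN partner genes Fnip1 and Fnip2 were higher on MCD (log2 0.58 ± 0.15 and 1.33 ± 0.27). The transcription factor genes went the other way or passed no test: Tfe3 had log2 -0.29 ± 0.07 on MCD (adjusted p = 0.00723), Mitf -0.48 ± 0.16 (adjusted p = 0.0489), and Tfeb -0.13 ± 0.14 (adjusted p = 0.58, edgeR). These are mRNA levels and hold no measure of where the factors are in the cell.

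The members varied together to different degrees. Over the 22 livers the 45 pairs of members had a median Pearson r of 0.669, from 0.168 to 0.943, and after group means were removed the median was 0.277. The livers share group and scaling, so these values describe the set and carry no test. Over the 22 livers Atp6v1e1 followed the others most closely (median r 0.895) and Atp6v0a1 least (median r 0.377). That order did not hold within groups. After group means were removed Atp6v1d was highest (median r 0.522, against 0.384 for Atp6v1e1). Atp6v1b2 was then lowest (median r -0.136, against 0.229 for Atp6v0a1). As a mean z-score over the 10 members, all 6 liver-Flcn-/- livers on MCD lay between 0.85 and 1.47 and no other liver above 0.23, while FLCN KO Chow 2 stood at -0.73, apart from the other 4 knockouts on chow at -0.18 to 0.23. The 5 genes outside the list whose levels were most like that mean, by Pearson r over the same 22 livers, were Pi4ka (0.956), Dlst (0.953), Amdhd2 (0.947), Ankrd27 (0.945) and Ctsz (0.943). Ctsz, the lysosomal protease cathepsin Z, averaged 208, 478, 400 and 852 CPM in the Cre chow, liver-Flcn-/- chow, Cre MCD and liver-Flcn-/- MCD groups.

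The counts on chow depended on which livers were used. Without the 5 chow libraries in which fewer reads mapped uniquely, 3 members were called higher in the knockout on chow (Atp6v1a, Atp6v1b2 and Atp6v1d) with a median of 0.33, where 2.61% of all genes tested were called higher, and without Cre Chow 2, Cre Chow 3 or FLCN KO Chow 1 alone the count was 4. Leaving out any 1 liver left the count on MCD at 9. The same 9 were called on MCD without the 5 libraries. Without Cre MCD 1 and FLCN KO Chow 2 the counts were 7 on chow and 9 on MCD for genotype and 7 in Cre and 8 in liver-Flcn-/- livers for diet, beside 5.26, 6.28, 27.6 and 19.2% of all genes called higher. Within the livers with high Xist, 4 members on chow and 8 on MCD were higher in the knockout, with medians of 0.33 and 0.40, beside 3.28 and 6.98% of all genes. Within the livers with low Xist these counts were 2 and 4, with medians of 0.41 and 0.50, beside 2.17 and 2.22% of all genes. For diet the counts were 6 in Cre and 8 in liver-Flcn-/- livers with high Xist, and 2 and 5 in livers with low Xist, beside 26.3 and 19.9%, and 18.4 and 9.32%, of all genes. The diet medians in Cre and in liver-Flcn-/- livers were 0.47 and 0.58 with high Xist, and 0.26 and 0.41 with low Xist. Atp6v1a and Atp6v1d were called in the knockout on both diets in all 35 alternatives.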

How the data were processed

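Liver mRNA libraries (KAPA mRNA HyperPrep) of 22 mice were analysed. Per the labels, the authors used bcl2fastq, Trimmomatic, STAR and HTSeq with GRCm38, and deposited raw counts, whole numbers of reads per gene without normalization, for 55573 genes. Tool versions, the strand setting, the annotation release and any collapse by molecular identifier are not given in the sources used here, so counting errors may be understated. Groups and replicate numbers came from the sample titles, 0 columns had no sample, and 0 pairs of libraries were identical. Livers come from separate mice.

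From the counts, genes with a mean of at least 10 counts (14062) were fitted in R 4.3.3 with edgeR 4.0.16 (TMM factors, robust quasi-likelihood, 1 fit of the 4 groups, contrasts for genotype on each diet, diet in each genotype and the interaction), with Benjamini-Hochberg adjustment over all genes tested. The SE of a log2 fold change is its size over the square root of the F statistic. The script was tested on simulated data. CPM per kb used the union of GENCODE M21 exons. The genes named are the members and the genes of lists of subunits, regulators, the FLCN pathway and cell markers, and the 5 genes most like the members' mean z-score of log2 CPM (prior count 2). Meak7 was matched to its older symbol Tldc1. The members, lists and tests were chosen with earlier results of these data known.

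Alternatives were limma-voom (limma 3.58.1), DESeq2 1.42.0, RLE factors, library size alone, other filters on low counts, only the groups compared, a covariate for sex inferred from Xist, the replicate number as a block, leaving out the 5 chow libraries in which fewer reads mapped uniquely, and each liver in turn left out. Added after seeing the data were the fits of only the livers with high or only those with low Xist (limit 1000 counts), leaving out Cre MCD 1 and FLCN KO Chow 2, the livers of high Xist with the most Ddx3y counts, and leaving out each liver in turn for the other pump genes.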

Additional observations from a re-analysis of the deposited data

Results flagged for a closer look

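Over 40 sets of values, 1 for each member in each group, 3 held a liver whose gap to the nearest other was above Dixon's limit, and chance alone gives about 1 in 20. Atp6v1b2 was at 116 CPM in Cre MCD 2, above the other 4 Cre livers on MCD. Atp6v1d was at 46 CPM in Cre Chow 6, the highest Cre liver on chow. Atp6v1h was at 139 CPM in FLCN KO MCD 4, the highest of all 22 livers.

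Among 31 tested pump and regulator genes, 3 had genotype differences that differed between diets by edgeR's interaction test, a share near that of all genes tested, of which 3.21% had called interactions above 0 and 5.42% below. The log2 interaction was 0.85 for Atp6v1h, where the knockout was higher on MCD and had a log2 value of -0.32 on chow. For Tcirg1 it was -0.99, with the knockout called lower on MCD, a genotype call lost in 13 of 22 fits with a liver left out. For Ccdc115 it was 0.52, with neither genotype difference called, and the interaction call was lost in 13 of 22 fits with a liver left out.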

How the results depend on the processing

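With 7 members higher in the knockout on chow, the count was 3 without the 5 chow libraries of low uniquely mapped share and 4 to 7 when 1 liver was left out. In livers of high or low Xist alone it was 4 and 2, beside 3.28 and 2.17% of all genes, in fits with fewer samples. In livers of low Xist alone the count for the knockout on MCD fell from 9 to 4, beside 2.22% of all genes. For diet it fell from 7 to 2 in Cre and from 8 to 5 in liver-Flcn-/- livers, beside 18.4 and 9.32%. The 2 of 10 members in Cre livers are near that share of all genes. For the interaction the count fell from 1 to 0, where Atp6v1h had 1.05 (adjusted p = 0.072, edgeR). Leaving out 1 liver gave 9 for the knockout on MCD, 6 to 7 and 8 for diet, and 1 for the interaction. The calls lost most often were those of Atp6v1c1 (18 of 35 alternatives), Atp6v1e1 (12) and Atp6v0c (8) for the knockout on chow and Atp6v1d (12) for diet in Cre livers, and the causes were not tested. Atp6v1h was called lower in the knockout on chow in 4 of 35 alternatives, DESeq2 among them. Under library size alone 8 members were higher in the knockout on chow, beside 1433 of all 14062 genes tested. Under the same scaling all 10 were higher on MCD in each genotype, Atp6v0a1 among them. Of all genes 7877 were then called higher on MCD in Cre livers and 5787 in liver-Flcn-/- livers. This scaling turned the diet log2 of Atp6v1h in Cre livers to 0.30 (adjusted p = 0.0173) and that of Atp6ap1 to 0.40 in Cre (adjusted p = 3.52e-05) and 0.24 in liver-Flcn-/- livers (adjusted p = 0.00676, edgeR). Adding a block for replicate numbers, the counts were 7 and 9 for the knockout on chow and on MCD, 7 and 8 for diet in Cre and in liver-Flcn-/- livers, and 1 for the interaction. The numbers name different mice, and mean correlations of same-numbered livers ran from -0.0842 to 0.129, so they did not pair the samples. Of 1908 values from the alternatives listed at the start 1846 kept their side of the threshold or, for counts and medians, stayed near the main value. Of the others 48 lost a call or fell in count, 7 gained a call, 3 reversed sign with a call and 4 medians moved. A value called in neither fit was taken as kept even where its sign changed. An example is Atp6v0a1 for the knockout on chow, whose log2 ran from -0.09 to 0.14. Of the 180 added later 146 were kept by the same rule, 30 lost a call or fell in count and 4 medians moved.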

Other observations

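Atp6v0d2, chosen here after its values were seen, separated the chow livers by Xist rather than by genotype. The 5 chow livers with low Xist had 3.24, 2.84, 1.05, 2.96 and 1.48 CPM, and the 6 with high Xist had 5.96 to 16.2 CPM. The low values are also the 5 libraries of low uniquely mapped share. On MCD livers of both kinds overlapped, at 20.3 to 53.9 CPM with low and 18.3 to 47.6 CPM with high Xist.

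Markers of further cell types also differed between groups. The 3 tested neutrophil genes were higher on MCD in each genotype, beside 29.3% of all genes in Cre and 22.4% in liver-Flcn-/- livers. Their median log2 values were 2.92 in Cre and 1.73 in liver-Flcn-/- livers. Of 5 stellate cell markers, 3 were higher on MCD in Cre livers and 3 were lower in the knockout on MCD (Des, Acta2 and Col1a1), beside 29.3 and 8.46% of all genes. Des and Acta2 are also muscle genes, and Cre MCD 3 held 295.3 CPM of the list, against 94.2 to 142.3 CPM in the other Cre livers on MCD. Without that liver, a fit added after seeing the data, the same 3 were higher on MCD in Cre livers and Acta2 and Col1a1 were lower in the knockout, while Des had log2 -0.68 (adjusted p = 0.0693, edgeR) in place of -2.73. Lymphocyte, endothelial and bile duct lists had at most 2 calls in any comparison of genotype or diet. The 5 skeletal muscle markers were called lower in the knockout on MCD, where Cre MCD 3 held 1646 CPM, beside 8.46% of all genes. Without Cre MCD 3 the adjusted p of the 4 that could be tested ran from 0.221 to 0.418 there (edgeR). For diet in Cre livers 3 of these 4 were still called higher without it, beside 29.3% of all genes, and Cre MCD 4 held 84.8 CPM.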
